A study of Homo sapiens with 12 samples.

Results

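The genes described here are the hypoxia response and glycolysis genes, a set of 38 genes matched by symbol to the Ensembl identifiers of the deposited count table. All 38 were among the 60483 genes of the table, and all 38 passed the filter on low counts that kept 14412 genes. The set was read in REC1 cells, an established human line of mantle cell lymphoma, a cancer of mature B cells. The groups were ibrutinib, a covalent inhibitor of Bruton tyrosine kinase, SPX5551, named pol5551 in the column headers and presented by the study as an inhibitor of the chemokine receptor CXCR4, the combination of both agents, and the vehicle DMSO. Each of these 4 treatments had 1 library at each of 4, 8 and 12 h, which makes 12 libraries. The doses, the oxygen level, the cell density and any change of medium are not known from the labels, and 1 cell line cannot stand for mantle cell lymphoma at large. The question put to the set was how far its transcripts changed with time in culture and how far with the agents.

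Cells sense oxygen through prolyl hydroxylases of the EGLN family, which mark the alpha subunit of the hypoxia-inducible factor (HIF) for destruction when oxygen is ample. When oxygen is scarce the subunit is spared, pairs with ARNT and activates genes for glucose uptake, glycolysis, lactate export, pH control and mitochondrial turnover. Glycolysis turns glucose into pyruvate, which lactate dehydrogenase converts to lactate or the pyruvate dehydrogenase complex passes to the mitochondria. B-cell receptor signals and MYC also raise glycolytic genes in B cells, so the same enzymes report on growth as well as on oxygen.

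HIF binds DNA at a short core, written here as ACGTG or GCGTG on either strand. The 250 bases before the RefSeq start of 6 members, in build GRCh38.p14, are shown because these members carry the time course described below, with every match to either core in capitals. The windows lie at chr17:28576896-28577145 (minus strand) for ALDOC, chr10:131981924-131982173 (minus strand) for BNIP3, chr9:35673678-35673927 (plus strand) for CA9, chr2:86441121-86441370 (plus strand) for KDM3A, chr11:18394313-18394562 (plus strand) for LDHA and chrX:78103998-78104247 (plus strand) for PGK1.
ALDOC: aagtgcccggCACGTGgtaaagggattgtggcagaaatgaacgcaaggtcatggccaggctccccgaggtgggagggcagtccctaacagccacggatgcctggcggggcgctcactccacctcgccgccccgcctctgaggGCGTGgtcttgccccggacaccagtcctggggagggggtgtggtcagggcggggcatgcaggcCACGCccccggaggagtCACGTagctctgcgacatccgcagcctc
BNIP3: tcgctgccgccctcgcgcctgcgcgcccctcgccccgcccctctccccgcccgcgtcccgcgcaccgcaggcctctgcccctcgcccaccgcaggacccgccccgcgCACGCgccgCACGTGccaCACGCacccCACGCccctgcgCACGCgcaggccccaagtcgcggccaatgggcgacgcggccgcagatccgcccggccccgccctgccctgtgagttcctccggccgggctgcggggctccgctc
CA9: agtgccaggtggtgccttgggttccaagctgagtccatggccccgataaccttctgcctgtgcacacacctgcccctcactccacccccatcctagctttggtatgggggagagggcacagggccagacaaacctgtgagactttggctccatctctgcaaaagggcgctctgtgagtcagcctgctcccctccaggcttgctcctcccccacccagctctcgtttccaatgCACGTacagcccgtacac
KDM3A: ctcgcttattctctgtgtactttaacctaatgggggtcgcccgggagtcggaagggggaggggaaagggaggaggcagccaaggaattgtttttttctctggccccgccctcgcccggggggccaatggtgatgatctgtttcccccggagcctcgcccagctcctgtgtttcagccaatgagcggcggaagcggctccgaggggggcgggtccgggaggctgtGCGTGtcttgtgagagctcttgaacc
LDHA: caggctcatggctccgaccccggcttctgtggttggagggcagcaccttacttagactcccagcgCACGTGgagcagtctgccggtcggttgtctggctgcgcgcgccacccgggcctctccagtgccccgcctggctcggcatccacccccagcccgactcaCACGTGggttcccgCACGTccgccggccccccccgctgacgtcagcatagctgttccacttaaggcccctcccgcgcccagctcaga
PGK1: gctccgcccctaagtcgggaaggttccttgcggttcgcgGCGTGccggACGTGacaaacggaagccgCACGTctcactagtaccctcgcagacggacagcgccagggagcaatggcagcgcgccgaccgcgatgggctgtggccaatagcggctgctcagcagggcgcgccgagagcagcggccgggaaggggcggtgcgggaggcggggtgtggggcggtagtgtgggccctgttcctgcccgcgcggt
CACGTG reads as ACGTG on both strands, so LDHA holds 5 matches at 3 places and ALDOC and BNIP3 each hold 1 such palindrome. The CA9 window has 1 match, whose first base lies at position -18 from the start. KDM3A, which went the other way over time, has a GCGTG at position -26 and no ACGTG. ENO2 also rose and has an ACGTG at position -118, while HK1 rose with neither core. ENO1 and PFKFB4 fell with GCGTG alone, and EGLN3, P4HA2, TPI1, PGAM1 and PDK1 fell with neither core. The falling members shown here all hold ACGTG, which is not so for every falling member with a window. Promoter windows were found in the RefSeq table for 33 of the 38 members. ACGTG was present in 13 of these 33 windows, or 39.4%, against 18.5% of all 35116 windows of the same length. Either core was present in 20 of the 33 members' windows, or 60.6%, against 43.2% of all windows. Among the 14 members with a window that fell at 12 h, 7 held ACGTG, and among the other 19 members with a window 6 did. A match is a stretch of letters, and binding was not measured.

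Total counts per library ranged from 19336303 to 28934030, and even the closest 2 libraries had a chi-square over genes of 5.03 per degree of freedom, so none repeated another. B-cell markers were abundant in every library, with CD79A at 709 to 1207 CPM (counts scaled to a common library size, here by trimmed mean of M values). CCND1, the cyclin overexpressed in mantle cell lymphoma, read 1274 to 1760 CPM. SOX11, the other mantle cell lymphoma marker read, was low, at 89 to 183 counts, near the range of EPCAM given below. The T-cell markers CD3D and CD3E had 54 to 100 and 60 to 178 counts, CD8A at most 8 and CD2 at most 1. Of the myeloid markers, CD14 had at most 19 counts in a library, CSF1R 13, LYZ 6 and FCGR3A 0. Of the stromal or epithelial markers, EPCAM had 84 to 168 counts, KRT8 38 to 130, COL1A1 5 to 37 and COL1A2 at most 2. The summed CPM of 4 T-cell markers was 6.58 to 9.05 with ibrutinib, 7.51 to 9.41 with SPX5551, 6.09 to 9.56 with the combination and 7.48 to 7.80 with DMSO. Sample titles and treatment labels match the column headers, which were followed here, but the descriptions in free text point every sample to a column headed with a different treatment of that hour. Under the descriptions the time comparisons would be the same by construction and the treatment comparisons would not. The libraries also differed in a trend with transcript length (Spearman correlation across 14316 genes of each library's deviation with length), which ran between -0.40 in the 8 h SPX5551 library and 0.41 in the 8 h ibrutinib library. At 4, 8 and 12 h it was 0.17, 0.41 and 0.32 with ibrutinib, -0.20, -0.40 and -0.38 with SPX5551, -0.02, -0.30 and 0.24 with the combination, and -0.15, -0.30 and 0.37 with DMSO.

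The 38 members spanned the range of a housekeeping pathway and of near-silent stress genes. Per kilobase of the longest annotated transcript, LDHB averaged 1331 CPM, GAPDH 1287, ENO1 1160 and LDHA 751 over the 12 libraries. At the other end CA9 averaged 0.492 CPM per kilobase, P4HA2 0.200 and SLC2A3 0.107. Together the members held 1.68, 1.44 and 1.31% of all counts at 4, 8 and 12 h with ibrutinib, 1.69, 1.553 and 1.504% with SPX5551, 1.56, 1.48 and 1.18% with the combination, and 1.72, 1.61 and 1.38% with DMSO. The share was lowest at 12 h in each of the 4 treatments. In bulk RNA fewer cells expressing a gene and less RNA per cell cannot be told apart.

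**Figure D1:**
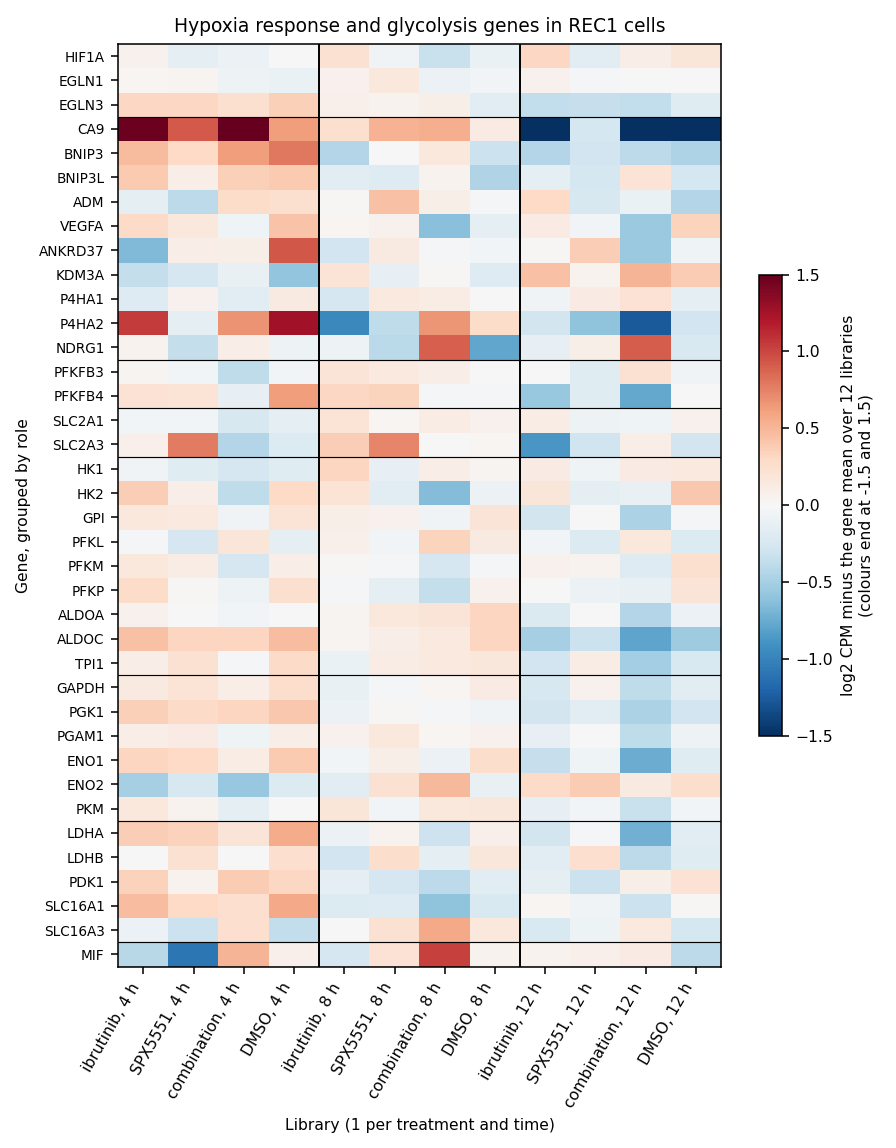
Level of each of the 38 genes (rows, grouped by role) in each of the 12 libraries (columns, ordered by time and then treatment), as log2 CPM minus the gene's mean over the libraries. CA9, BNIP3, ALDOC and PGK1 turn from red at 4 h to blue at 12 h in all 4 treatments. LDHA turns likewise but lies near its mean in the 12 h SPX5551 library. KDM3A and ENO2 run the other way, and KDM3A also lies near its mean in that library.

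Transcripts of the set changed with culture time, mostly downwards, in all 4 treatments. At 12 h compared with 4 h, 16 of the 38 members fell, 3 rose and 19 did not pass, with treatment as a term in the model (edgeR quasi-likelihood F-test, adjusted p under 0.05 over all tested genes). Across all 14412 genes 35.9% passed in that comparison, 17.5% lower and 18.4% higher, so 16 of 38 lower stands against a background of about equal directions. The median log2 fold change was -0.22 over the members and 0.00 over all genes tested. In 10 members every 12 h library lay below every 4 h library (ALDOC, BNIP3, CA9, EGLN3, ENO1, GAPDH, LDHA, P4HA2, PGK1 and SLC16A1), which held for 12.2% of all genes. In 2 members, ENO2 and KDM3A, every 12 h library lay above, which held for 11.9% of all genes. CA9 and P4HA2, counted among the falls at 12 h, met the filter on low counts through 4 h and 8 h libraries alone. Their calls and their lack of overlap at 12 h are thus not free of that selection. At 8 h compared with 4 h, 9 members fell and 5 rose, where 26.6% of all genes passed, 13.4% lower and 13.1% higher. In 8 members every 8 h library lay below every 4 h library (BNIP3, BNIP3L, CA9, EGLN3, LDHA, PDK1, PGK1 and SLC16A1), which held for 10.1% of all genes, and in ENO2 and SLC2A1 every 8 h library lay above, which held for 9.10%. Scaled by library size alone the split was 7 lower and 6 higher, and without the 4 h DMSO, ibrutinib or combination library or the 8 h DMSO library the count of calls was 7 to 8. At 12 h compared with 8 h, 7 members fell and 1 rose, where 9.08% of all genes passed, 4.66% lower and 4.41% higher. In 7 members every 12 h library lay below every 8 h library (ALDOA, ALDOC, CA9, EGLN3, PGAM1, PGK1 and PKM), which held for 4.06% of all genes, and in 0 members above, which held for 3.57%. With library size alone this split was 4 lower and 2 higher. The 1 member that rose, KDM3A, did not pass with trends in length and GC content removed (0.17, adjusted p of 0.0994). The count at 12 h over 8 h was the least stable: it was 1 to 5 without the 4 h or 12 h DMSO, ibrutinib or combination library or the 8 h DMSO, SPX5551 or combination library, 15 without the 12 h SPX5551 library and 23 without both that library and the 8 h ibrutinib library, of which 18 were lower. The trend with length ran with these comparisons at a correlation of 0.15 for 12 h over 4 h, -0.07 for 8 h over 4 h and 0.32 for 12 h over 8 h. With trends in length and GC content taken out, 20 members fell and 4 rose at 12 h compared with 4 h, and the 19 members called above all kept their direction and passed.

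**Figure D2:**
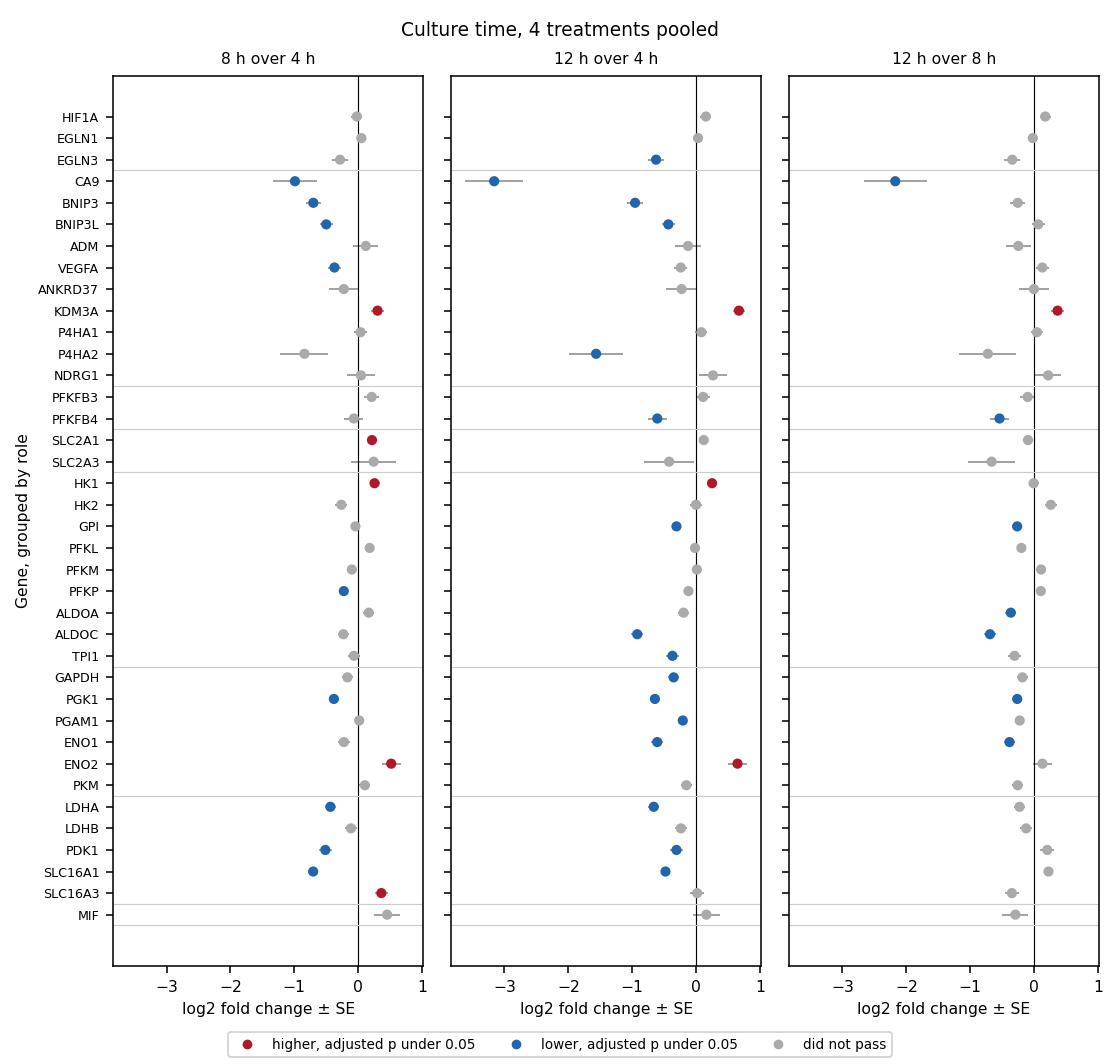
Log2 fold change ± SE of each of the 38 genes for 8 h over 4 h, 12 h over 4 h and 12 h over 8 h, from the model with treatment as a term. Blue points fell and red points rose at an adjusted p under 0.05, and 16 points are blue and 3 red at 12 h over 4 h.

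Among the oxygen-sensing genes, EGLN3, the inducible prolyl hydroxylase that is itself a HIF target, fell over time. It stood at 6.59, 6.59, 6.27 and 6.84 CPM at 4 h, 5.62, 5.51, 5.65 and 4.70 CPM at 8 h and 4.09, 4.16, 4.09 and 4.68 CPM at 12 h in the ibrutinib, SPX5551, combination and DMSO libraries. The 3 times did not overlap at any pair, and each treatment declined by a similar amount between 4 h and 12 h. The gap between 8 h and 12 h was narrow, at 4.70 against 4.68 CPM in the DMSO libraries. EGLN3 did not pass at 8 h over 4 h or at 12 h over 8 h. It overlaps SPTSSA on the same strand, which averaged 28.1 CPM against 5.40 CPM for EGLN3. The log2 fold change of EGLN3 at 12 h over 4 h was -0.63 ± 0.13 (SE), with an adjusted p of 0.00147. EGLN1, the constitutive prolyl hydroxylase, read 73.1, 73.7, 68.0 and 66.5 CPM at 4 h, 74.9, 79.8, 67.0 and 69.6 CPM at 8 h and 74.4, 70.1, 71.1 and 71.0 CPM at 12 h in the ibrutinib, SPX5551, combination and DMSO libraries. These levels differed by little at any time, and the log2 fold change was 0.03 ± 0.07 (SE) (adjusted p of 0.776). HIF1A encodes the regulated subunit, which is controlled mainly through the stability of the protein. Its transcript read 128, 110.3, 116 and 122 CPM at 4 h, 143, 118, 96.9 and 114 CPM at 8 h and 152, 109.6, 131 and 139 CPM at 12 h in the ibrutinib, SPX5551, combination and DMSO libraries. The times overlapped, with a log2 fold change of 0.15 ± 0.09 (SE) (adjusted p of 0.181).

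The largest decline of the set was that of CA9, a membrane carbonic anhydrase that takes part in pH control and is a standard hypoxia marker. CA9 was low throughout, at 1.71, 1.13, 2.15 and 0.908 CPM at 4 h, 0.676, 0.836, 0.851 and 0.613 CPM at 8 h and 0.0505, 0.446, 0.0750 and 0.101 CPM at 12 h in the ibrutinib, SPX5551, combination and DMSO libraries. Every library at 12 h lay below every library at 4 h and at 8 h, and the SPX5551 library was the highest of the 12 h libraries. Summed over treatments, CA9 had 14 counts at 12 h against 124 at 4 h, a ratio of scaled levels of 0.107 with a 95% interval of 0.0569 to 0.187 that covers counting error only. CA9 met the filter on low counts through 4 h and 8 h libraries alone. It thus entered the tests only through times at which it was higher, and its p-values are not free of that selection. The fitted log2 fold change was -3.16 ± 0.46 (SE) at 12 h (adjusted p of 0.000135) and -0.99 ± 0.34 (SE) at 8 h (adjusted p of 0.0419), both over 4 h. Its 12 h call passed in each of the 12 fits that left out 1 library, while its 8 h call was lost in 7 of them, with a largest adjusted p of 0.226 without the 4 h combination library. The gene overlaps ARHGEF39 on the opposite strand (7.37 CPM on average), and whether counting used the strand is not stated.

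BNIP3 and BNIP3L, which tag mitochondria for autophagy, both fell by 8 h. BNIP3 stood at 37.1, 32.9, 40.9 and 46.3 CPM at 4 h, 19.6, 26.5, 29.5 and 21.3 CPM at 8 h and 19.6, 21.8, 20.2 and 19.3 CPM at 12 h in the ibrutinib, SPX5551, combination and DMSO libraries. No 8 h or 12 h library reached the level of any 4 h library. Its log2 fold change was -0.70 ± 0.12 (SE) at 8 h and -0.96 ± 0.12 (SE) at 12 h, over 4 h. BNIP3L measured 28.98, 23.7, 28.3 and 29.02 CPM at 4 h, 19.6, 19.4, 22.9 and 16.1 CPM at 8 h and 19.9, 18.3, 25.3 and 18.3 CPM at 12 h in the ibrutinib, SPX5551, combination and DMSO libraries, with log2 fold changes of -0.50 ± 0.10 (SE) and -0.44 ± 0.10 (SE) at 8 and 12 h. Both genes were below their 4 h levels at 8 h in all 4 treatments, and their adjusted p at 12 h was 4.88e-05 for BNIP3 and 0.00359 for BNIP3L.

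KDM3A, a histone H3 lysine demethylase that is also a HIF target, went the other way. KDM3A read 38.6, 41.5, 45.9 and 32.8 CPM at 4 h, 56.7, 45.6, 50.2 and 43.4 CPM at 8 h and 67.1, 51.0, 70.3 and 64.3 CPM at 12 h in the ibrutinib, SPX5551, combination and DMSO libraries. Each 12 h library was above each 4 h library, with a log2 fold change of 0.67 ± 0.10 (SE) (adjusted p of 0.00016). Among the collagen prolyl hydroxylase subunits, P4HA2 stood at 1.28, 0.515, 0.964 and 1.496 CPM at 4 h, 0.249, 0.418, 0.953 and 0.715 CPM at 8 h and 0.455, 0.347, 0.188 and 0.453 CPM at 12 h in the ibrutinib, SPX5551, combination and DMSO libraries. It was near the floor, with 30 counts at 12 h against 87 at 4 h over the 4 libraries each. Like CA9, P4HA2 met the filter on low counts through 4 h and 8 h libraries alone, so it entered the tests only through times at which it was higher. The log2 fold change of P4HA2 at 12 h over 4 h was -1.57 ± 0.42 (SE) (adjusted p of 0.00921). The call was lost without the 12 h combination library (log2 fold change -1.20, adjusted p of 0.0586) and also without the 4 h ibrutinib library. P4HA1, its far more abundant paralogue, read 27.6, 33.0, 28.5 and 34.7 CPM at 4 h, 26.6, 35.1, 34.3 and 31.4 CPM at 8 h and 30.6, 34.4, 36.9 and 28.9 CPM at 12 h in the ibrutinib, SPX5551, combination and DMSO libraries, with a log2 fold change of 0.08 ± 0.10 (SE) that did not pass (adjusted p of 0.533).

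VEGFA, the angiogenic growth factor, was below its 4 h level at 8 h in each treatment, with a log2 fold change of -0.37 ± 0.10 (SE) (adjusted p of 0.0114), and did not pass at 12 h (-0.24 ± 0.10 (SE), adjusted p of 0.0671). Without the 8 h DMSO library the 8 h value was -0.29 with an adjusted p of 0.0634, and the call was also lost without the 4 h combination library. ADM, the vasodilator peptide adrenomedullin, ranged between 2.77 and 5.13 CPM and ANKRD37 between 1.57 and 4.92 CPM over the 12 libraries. Neither passed in any comparison, and each was higher at 12 h than at 4 h in 2 treatments and lower in 2.

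The bifunctional enzymes that set fructose 2,6-bisphosphate, the activator of phosphofructokinase, are PFKFB3 and PFKFB4. PFKFB4 read 7.26, 7.21, 5.74 and 9.78 CPM at 4 h, 7.82, 7.91, 6.16 and 6.13 CPM at 8 h and 4.19, 5.55, 3.64 and 6.34 CPM at 12 h in the ibrutinib, SPX5551, combination and DMSO libraries. It was lowest at 12 h in 3 of the 4 treatments, the exception being DMSO, where 8 h was lowest, and its log2 fold change at 12 h over 4 h was -0.61 ± 0.15 (SE) (adjusted p of 0.00623). PFKFB3, the paralogue with the stronger kinase activity, stood at 16.4, 15.5, 12.2 and 15.4 CPM at 4 h, 18.2, 17.6, 17.0 and 15.9 CPM at 8 h and 15.8, 14.1, 18.6 and 15.4 CPM at 12 h in the ibrutinib, SPX5551, combination and DMSO libraries. Its times overlapped and no comparison passed. Glucose enters through transporters, of which SLC2A1 (GLUT1) measured 67.7, 67.4, 59.0 and 63.6 CPM at 4 h, 80.1, 71.1, 74.9 and 73.1 CPM at 8 h and 74.7, 65.8, 66.6 and 72.9 CPM at 12 h in the ibrutinib, SPX5551, combination and DMSO libraries. It was highest at 8 h in all 4 treatments, with a log2 fold change of 0.22 ± 0.07 (SE) at 8 h over 4 h (adjusted p of 0.0389). This call was kept in 2 of the 12 fits that left out 1 library, those without the 4 h or the 12 h SPX5551 library, and the fold change stayed between 0.17 and 0.27. With trends in length and GC content removed it was 0.15 with an adjusted p of 0.0612. SLC2A3 (GLUT3) was near the floor, at 0.474, 0.824, 0.307 and 0.374 CPM at 4 h, 0.605, 0.798, 0.443 and 0.460 CPM at 8 h and 0.202, 0.347, 0.488 and 0.352 CPM at 12 h in the ibrutinib, SPX5551, combination and DMSO libraries, and its direction varied between treatments.

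In upper glycolysis the clearest member was ALDOC, the aldolase best known from brain. ALDOC stood at 100.1, 92.8, 92.2 and 103 CPM at 4 h, 75.9, 79.5, 82.1 and 92.8 CPM at 8 h and 52.3, 59.2, 42.8 and 51.0 CPM at 12 h in the ibrutinib, SPX5551, combination and DMSO libraries. The 12 h libraries lay below all others. The log2 fold change was -0.92 ± 0.09 (SE) at 12 h over 4 h (adjusted p of 9.77e-06), the smallest p of the set, and -0.69 ± 0.09 (SE) at 12 h over 8 h, a call kept in each of the 12 fits that left out 1 library. ALDOA, the main aldolase, measured 979.8, 945, 911 and 942 CPM at 4 h, 961, 1049, 1066 and 1168 CPM at 8 h and 807, 937, 689 and 876 CPM at 12 h in the ibrutinib, SPX5551, combination and DMSO libraries. It was below its 8 h level at 12 h in all 4 treatments (-0.36 ± 0.09 (SE), adjusted p of 0.0264) but did not pass against 4 h (-0.20 ± 0.09 (SE)). Its call against 8 h was lost without the 12 h DMSO, ibrutinib or combination library or the 8 h DMSO or combination library, with a largest adjusted p of 0.135.

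GPI and TPI1, the isomerases that follow hexokinase and aldolase, also fell at 12 h over 4 h. GPI was at 465, 460, 401 and 482 CPM at 4 h, 443, 434, 402 and 475 CPM at 8 h and 344, 416, 299 and 409 CPM at 12 h in the ibrutinib, SPX5551, combination and DMSO libraries, with a log2 fold change of -0.31 ± 0.08 (SE) (adjusted p of 0.00604). TPI1 ranged between 653 and 806 CPM at 4 h, 612 and 739 CPM at 8 h and 461 and 710 CPM at 12 h, with a log2 fold change of -0.37 ± 0.10 (SE) (adjusted p of 0.00670). Every treatment was lower at 12 h than at 4 h in both genes, and the SPX5551 library moved least in both. HK1, the housekeeping hexokinase, rose instead, and read 90.7, 82.4, 79.0 and 83.0 CPM at 4 h, 118, 86.2, 101 and 97.1 CPM at 8 h and 102, 90.0, 102 and 104 CPM at 12 h in the ibrutinib, SPX5551, combination and DMSO libraries. Its log2 fold change was 0.25 ± 0.08 (SE) (adjusted p of 0.0212), a call lost without the 4 h or 12 h DMSO or combination library or the 4 h ibrutinib library, where the adjusted p reached 0.109. The 3 phosphofructokinase genes and HK2 did not pass at 12 h over 4 h, with log2 fold changes between -0.12 for PFKP and 0.01 for PFKM.

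Lower glycolysis held 4 genes that fell, 1 that rose and PKM, which did not pass. PGK1, which makes the first ATP of the pathway, stood at 1564, 1484, 1518 and 1611 CPM at 4 h, 1148, 1231, 1189 and 1179 CPM at 8 h and 999.7, 1082, 880.2 and 997 CPM at 12 h in the ibrutinib, SPX5551, combination and DMSO libraries. The 4 h libraries were above all 8 h libraries, and these above all 12 h libraries. Its log2 fold change at 12 h over 4 h was -0.65 ± 0.08 (SE) (adjusted p of 3.64e-05). ENO1, the main enolase, read 3604, 3555, 3116 and 3789 CPM at 4 h, 2809, 3074, 2717 and 3464 CPM at 8 h and 2280, 2777, 1718 and 2551 CPM at 12 h in the ibrutinib, SPX5551, combination and DMSO libraries, with a log2 fold change of -0.61 ± 0.09 (SE) (adjusted p of 0.00017). ENO2, the neuronal enolase, which is far less abundant here, rose, at 4.41, 5.30, 4.21 and 5.40 CPM at 4 h, 5.62, 7.37, 8.78 and 5.77 CPM at 8 h and 7.63, 8.17, 6.86 and 7.55 CPM at 12 h in the ibrutinib, SPX5551, combination and DMSO libraries. The paralogues thus moved in opposite directions, ENO2 by 0.65 ± 0.15 (SE) (adjusted p of 0.00401), and each direction was seen in 4 of 4 treatments. GAPDH spanned 2560 to 2882 CPM at 4 h, 2212 to 2605 CPM at 8 h and 1827 to 2496 CPM at 12 h, with a log2 fold change of -0.35 ± 0.09 (SE) (adjusted p of 0.00530). PGAM1 spanned 167 to 189 CPM at 4 h, 179 to 195 CPM at 8 h and 135 to 173 CPM at 12 h (-0.21 ± 0.07 (SE), adjusted p of 0.0319). The PGAM1 call was lost without the 12 h ibrutinib or combination library or the 4 h DMSO, ibrutinib or combination library, with a largest adjusted p of 0.116. PKM ranged between 996 and 1425 CPM over the 12 libraries. GAPDH has 62 and PGAM1 13 annotated pseudogenes, whose own counts summed to 1.69 and 1.86 CPM. How the counting treated reads that match both a gene and a pseudogene is not stated. The part of such reads in either gene is therefore not known.

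**Figure D3:**
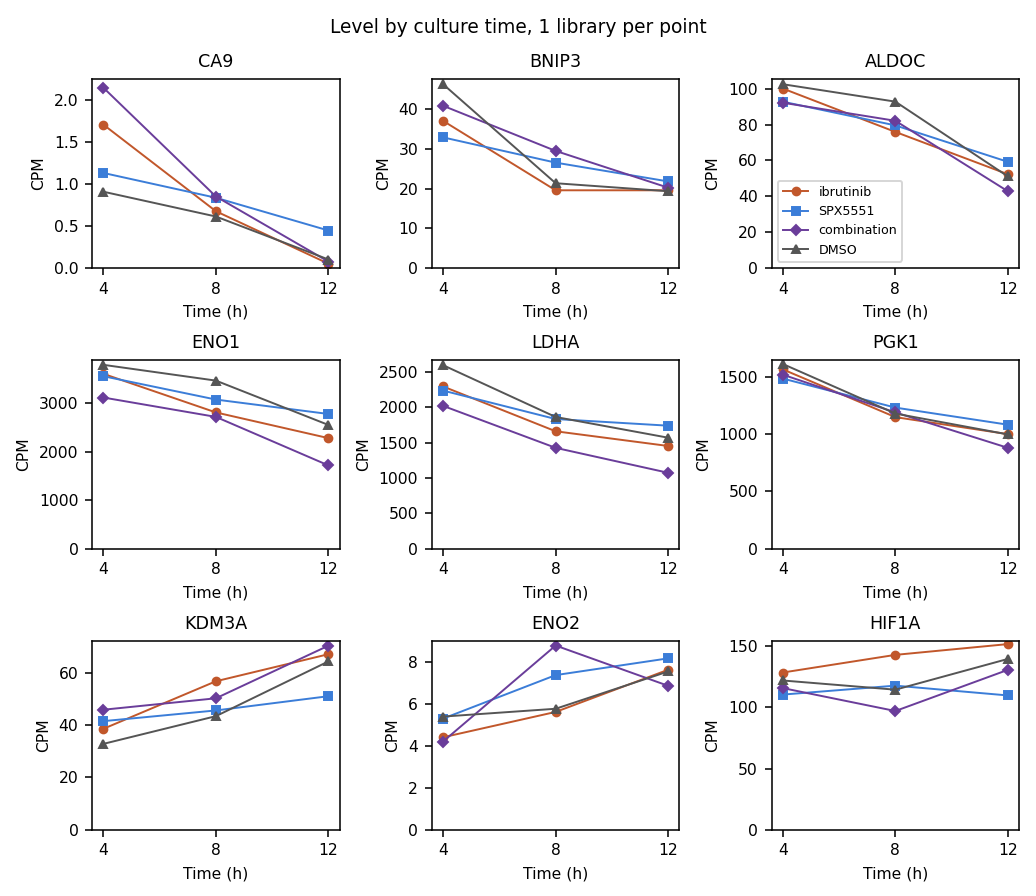
CPM of 9 genes by time (h), with 1 point per library and 1 line per treatment (ibrutinib, SPX5551, combination and DMSO). PGK1 and ALDOC decline in every treatment, KDM3A climbs in every treatment, ENO2 is above its 4 h level at 8 h and 12 h in every treatment, and HIF1A shows no shared course.

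At the pyruvate branch, LDHA, the lactate dehydrogenase subunit that favours lactate production, fell, and LDHB, the subunit that favours pyruvate, did not pass. LDHA stood at 2295, 2237, 2021 and 2596 CPM at 4 h, 1662, 1835, 1428 and 1864 CPM at 8 h and 1454, 1741, 1075 and 1571 CPM at 12 h in the ibrutinib, SPX5551, combination and DMSO libraries. All 8 h and 12 h libraries lay below all 4 h libraries, with log2 fold changes of -0.44 ± 0.09 (SE) and -0.66 ± 0.09 (SE) at 8 and 12 h (adjusted p of 6.39e-05 at 12 h). LDHB measured 2014, 2368, 2026 and 2403 CPM at 4 h, 1669, 2434, 1843 and 2267 CPM at 8 h and 1806, 2407, 1541 and 1783 CPM at 12 h in the ibrutinib, SPX5551, combination and DMSO libraries, and its times overlapped (-0.24 ± 0.09 (SE), adjusted p of 0.0523). PDK1, the kinase that closes the pyruvate dehydrogenase complex, read 21.0, 17.2, 21.7 and 20.6 CPM at 4 h, 15.0, 13.91, 12.5 and 14.7 CPM at 8 h and 15.0, 13.3, 17.6 and 19.2 CPM at 12 h in the ibrutinib, SPX5551, combination and DMSO libraries. It was below the 4 h levels in all 8 h libraries (-0.51 ± 0.11 (SE), adjusted p of 0.00238) and overlapped them at 12 h (-0.31 ± 0.11 (SE), adjusted p of 0.0317). Its 12 h call was lost without the 12 h ibrutinib or SPX5551 library or the 4 h ibrutinib or combination library, with a largest adjusted p of 0.120.

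The lactate exporters are SLC16A1 (MCT1) and SLC16A3 (MCT4), of which SLC16A3 is the one known as hypoxia-inducible. SLC16A1 was at 238, 211, 205 and 254 CPM at 4 h, 149.5, 149.7, 113 and 147 CPM at 8 h and 176, 165, 138 and 174 CPM at 12 h in the ibrutinib, SPX5551, combination and DMSO libraries. It was lowest at 8 h in every treatment, with log2 fold changes of -0.70 ± 0.08 (SE) at 8 h and -0.48 ± 0.08 (SE) at 12 h, over 4 h (adjusted p of 3.31e-05 and 0.00022). SLC16A3 read 9.63, 8.18, 12.2 and 7.91 CPM at 4 h, 10.2, 12.1, 15.2 and 11.4 CPM at 8 h and 8.74, 9.71, 11.3 and 8.50 CPM at 12 h in the ibrutinib, SPX5551, combination and DMSO libraries. It was highest at 8 h in every treatment (0.36 ± 0.11 (SE) over 4 h, adjusted p of 0.0187), and it was back near its 4 h level at 12 h (0.02 ± 0.11 (SE)). Its 8 h call was lost without the 4 h or 8 h DMSO or SPX5551 library or the 8 h combination library, with a largest adjusted p of 0.0713. With trends in length and GC content removed it was 0.18 with an adjusted p of 0.190. SLC16A3 overlaps CSNK1D on the opposite strand, which averaged 165 CPM, and SLC16A1 overlaps SLC16A1-AS1 at 17.3 CPM. MIF, a cytokine that is also a HIF target, ranged between 7.51 and 32.6 CPM and did not pass in any comparison.

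The time course did not pass a test for a difference with either agent. Adding time by ibrutinib exposure to the model gave no call among the 38 members or the 14412 genes (0% called), with 1 member at an unadjusted p under 0.05, and so did time by SPX5551 exposure (0% called), also with 1. The 1 member for ibrutinib was CA9, whose difference in log2 fold change at 12 h over 4 h between exposed and unexposed libraries was -2.93 ± 0.87 (SE, adjusted p of 0.9998). DESeq2 and limma-voom called none in either test. Within single treatments, the log2 difference at 12 h over 4 h was -0.94 with ibrutinib, -0.65 with SPX5551, -1.11 with the combination and -1.01 with DMSO in ALDOC. In ENO1 it was -0.66 with ibrutinib, -0.36 with SPX5551, -0.86 with the combination and -0.57 with DMSO, and in LDHA -0.66, -0.36, -0.91 and -0.72 for the same treatments. SPX5551 had the smallest difference in each of these, and the 12 h SPX5551 library is the only 12 h library whose trend with length was negative. Whether the trend bears on these differences was not tested. With 1 library per treatment and time, the trend and the treatment cannot be told apart there.

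Set against each other, time outweighed treatment in most members. Splitting each gene's sum of squares of log2 CPM over the 12 libraries, time held a median of 51.7%, treatment 26.1% and the rest 17% over the 38 members, against 37.1, 30.5 and 25.1% over all genes tested. Time was the largest part in 22 members, treatment in 12 and the rest in 4, against 6630, 4821 and 2961 of all 14412 genes. PGK1, ALDOC and EGLN3 were at the end of time, and PFKM, HK2, PFKL and NDRG1 at the end of treatment. The 38 members share the 12 libraries, so their splits are not independent.

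**Figure D4:**
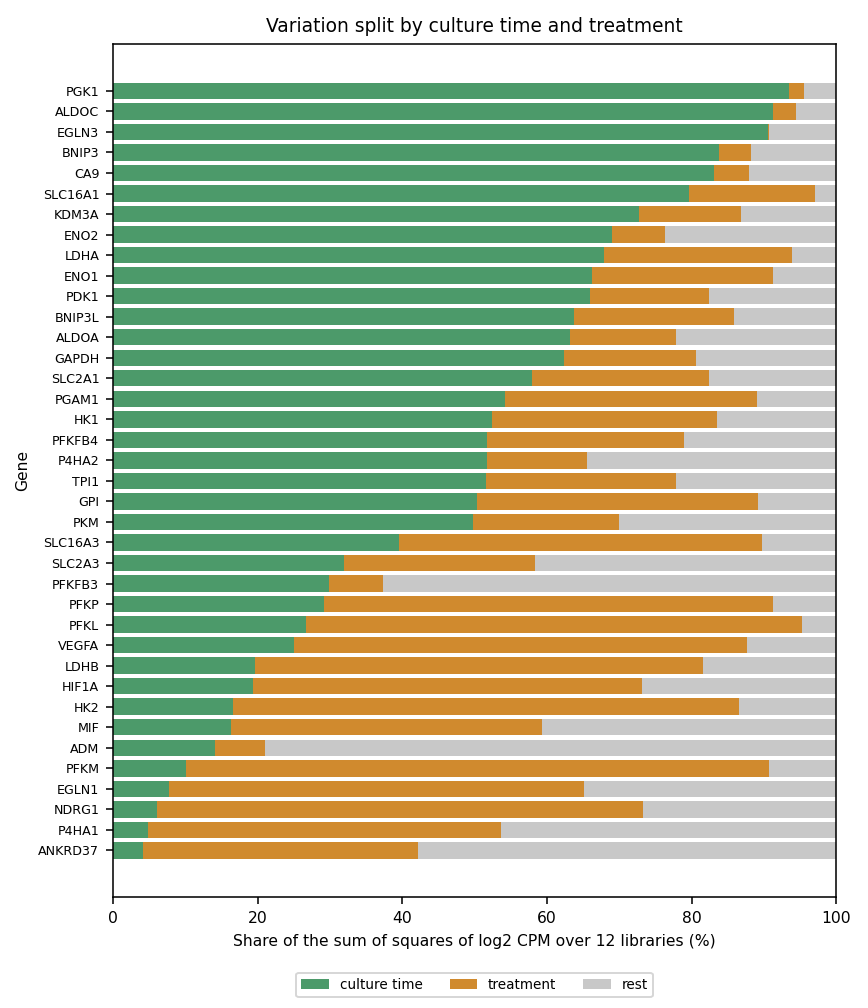
Share of each gene's sum of squares of log2 CPM over the 12 libraries (%) held by culture time, treatment and the rest, with the 38 genes sorted by the share of time. Time is the widest bar in 22 genes and treatment in 12.

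No member passed for either single agent. For ibrutinib compared with DMSO, 0 of 38 members passed where 0.104% of all genes did (15 genes, all lower), with 2 members at an unadjusted p under 0.05 (ANKRD37 and LDHB) and 0 calls from DESeq2 and limma-voom. The members' log2 fold changes lay between -0.62 and 0.49, with a median of -0.03 against 0.02 over all genes. In 1 member, EGLN1, all 3 ibrutinib libraries lay above all 3 DMSO libraries, which held for 3.20% of all genes, and in 0 members below, which held for 2.82%. For SPX5551 compared with DMSO, 0 of 38 members and 0% of all genes passed, with 3 members at an unadjusted p under 0.05 (HK2, PFKP and PDK1) and again 0 from DESeq2 and limma-voom. These log2 fold changes lay between -0.98 and 0.70, with the widest values in the low genes. In 1 member, PFKP, all 3 SPX5551 libraries lay below all 3 DMSO libraries, which held for 3.54% of all genes, and in 0 members above, which held for 3.77%. With 3 libraries a group, the standard error of HK2 was 0.11 on the log2 scale, so shifts of that order could not be detected. These 2 comparisons run with the trend in length at correlations of 0.43 for ibrutinib and -0.36 for SPX5551, while that for the combination over DMSO was 0.01.

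**Figure D5:**
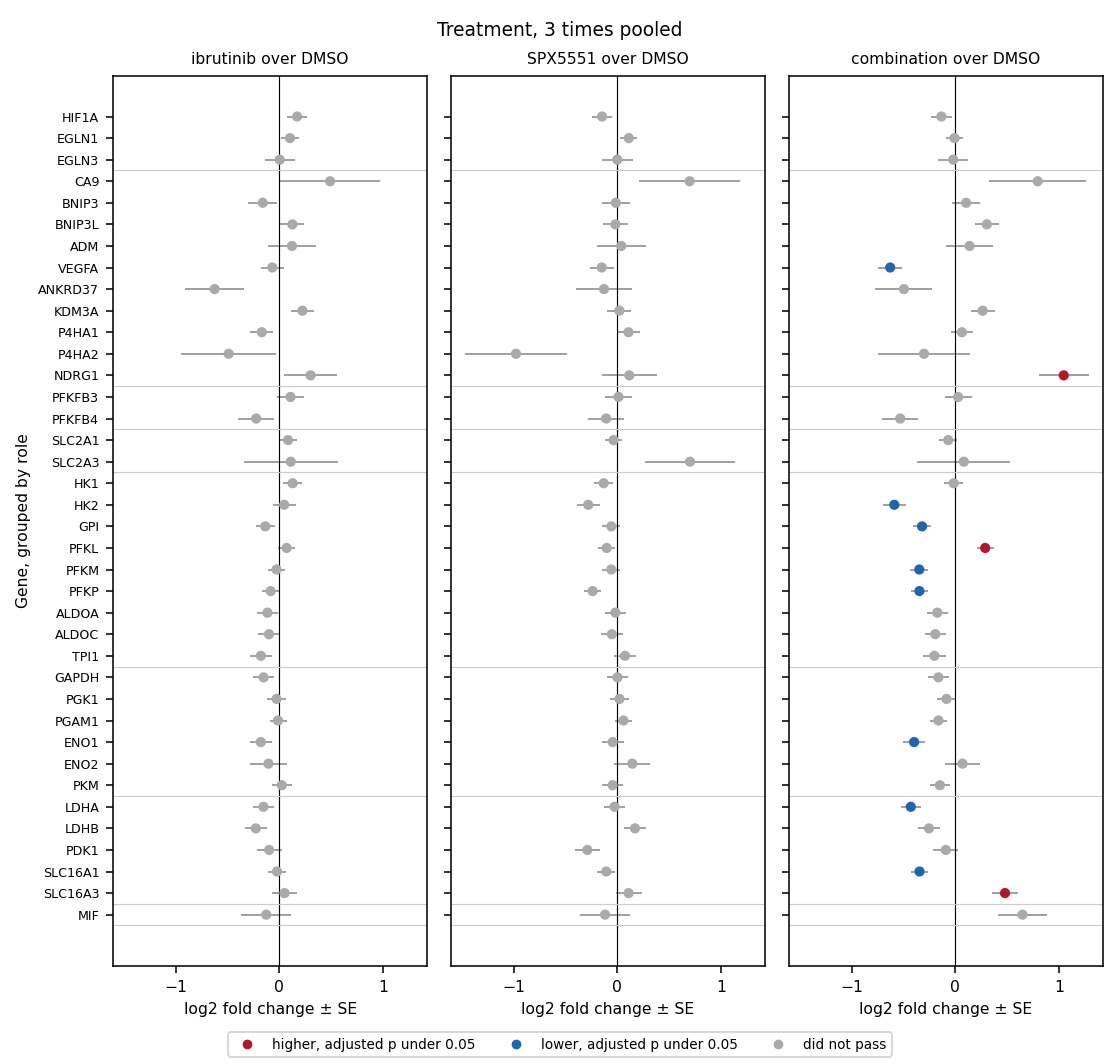
Log2 fold change ± SE of each of the 38 genes for ibrutinib, SPX5551 and the combination, each over DMSO, from the model with time as a term. No point is coloured for either single agent, and 8 genes are blue (lower) and 3 red (higher) for the combination.

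With the combination 11 members differed from DMSO, 8 lower and 3 higher, where 9.57% of all genes passed, 5.41% lower and 4.16% higher. Lower were VEGFA, HK2, GPI, PFKM, PFKP, ENO1, LDHA and SLC16A1, and higher were NDRG1, PFKL and SLC16A3. The members' median log2 fold change was -0.11 against 0.02 over all genes. With library size alone as the scaling, 4 were lower and 4 higher. Each of these 11 had the same sign at 4, 8 and 12 h. In HK2, PFKM, PFKP and GPI every combination library lay below every DMSO library, which held for 5.16% of all genes, and in NDRG1, PFKL and MIF every combination library lay above, which held for 6.35%. The count of calls was 4 to 6 without any 1 of the 3 combination or 3 DMSO libraries, and 2, 3 and 5 without the 4, 8 and 12 h time points. VEGFA and HK2 passed in each of the 12 fits that left out 1 library. With columns given to treatments by the free-text descriptions, all 11 would have the opposite sign.

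HK2, the inducible hexokinase that opens glycolysis, stood at 67.9, 56.8 and 81.9 CPM with the combination, 115, 102 and 101 CPM with ibrutinib, 94.9, 78.8 and 80.6 CPM with SPX5551 and 109, 83.9 and 118 CPM with DMSO at 4, 8 and 12 h. The combination library was the lowest of its time at 4 h and at 8 h, and at 12 h it was close to that of SPX5551. The log2 fold change over DMSO was -0.59 ± 0.11 (SE) (adjusted p of 0.00436), and over ibrutinib -0.64 ± 0.11 (SE) (adjusted p of 0.00772). VEGFA measured 27.8, 18.7 and 19.7 CPM with the combination, 35.5, 29.5 and 31.4 CPM with ibrutinib, 32.3, 30.2 and 28.2 CPM with SPX5551 and 39.1, 26.3 and 36.3 CPM with DMSO at 4, 8 and 12 h. Its combination library was the lowest at every time, with log2 fold changes of -0.63 ± 0.12 (SE) over DMSO, -0.56 ± 0.11 (SE) over ibrutinib and -0.48 ± 0.11 (SE) over SPX5551 (adjusted p of 0.00368, 0.0150 and 0.0213).

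The phosphofructokinase subunits, which catalyse the committed step of glycolysis, moved apart. PFKL, the liver-type subunit, read 131, 146 and 129 CPM with the combination, 115, 122 and 112 CPM with ibrutinib, 96.9, 112 and 101 CPM with SPX5551 and 105, 127 and 101 CPM with DMSO at 4, 8 and 12 h. PFKM, the muscle-type subunit, read 38.7, 38.8 and 40.4 CPM with the combination, 51.7, 47.1 and 48.5 CPM with ibrutinib, 50.2, 45.8 and 48.1 CPM with SPX5551 and 49.9, 45.5 and 54.7 CPM with DMSO at 4, 8 and 12 h. PFKP, the platelet-type subunit, read 91.5, 75.7 and 89.3 CPM with the combination, 117, 94.8 and 95.8 CPM with ibrutinib, 97.4, 87.9 and 90.5 CPM with SPX5551 and 114, 101 and 110.2 CPM with DMSO at 4, 8 and 12 h. PFKL was highest with the combination at every time, with a log2 fold change over DMSO of 0.29 ± 0.08 (SE), and PFKM and PFKP were lowest with it at every time, with -0.35 ± 0.09 (SE) and -0.35 ± 0.08 (SE). With the trends in length and GC content removed PFKL was 0.12 with an adjusted p of 0.291, while PFKM and PFKP passed at -0.33 and -0.36. PFKM overlaps SENP1 on the opposite strand, which averaged 64.6 CPM.

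NDRG1, a stress-responsive gene induced by hypoxia, was the member with the largest difference, at 2.81, 4.90 and 4.99 CPM with the combination, 2.70, 2.45 and 2.38 CPM with ibrutinib, 2.01, 1.94 and 2.77 CPM with SPX5551 and 2.46, 1.48 and 2.21 CPM with DMSO at 4, 8 and 12 h. Its combination libraries stood apart at 8 and 12 h, while the 4 h library was near the others of its time. The log2 fold change was 1.05 ± 0.24 (SE) over DMSO (adjusted p of 0.0144) and 0.93 ± 0.24 (SE) over SPX5551 (adjusted p of 0.0278). It was 0.70 with an adjusted p of 0.235 without the 8 h libraries. SLC16A3, whose values are given above, was highest with the combination at every time (0.48 ± 0.12 (SE) over DMSO, adjusted p of 0.0226), and SLC16A1 was lowest with it at every time (-0.34 ± 0.09 (SE), adjusted p of 0.0210).

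The glycolytic enzymes that declined with time were partly lower again with the combination. LDHA was lowest with it at every time (-0.43 ± 0.10 (SE) over DMSO, adjusted p of 0.0144), as were ENO1 (-0.40 ± 0.11 (SE), adjusted p of 0.0274) and GPI (-0.32 ± 0.09 (SE), adjusted p of 0.0346). At 12 h LDHA read 1075 CPM with the combination against 1571 CPM with DMSO, and ENO1 1718 CPM with the combination against 2551 CPM with DMSO. CA9, BNIP3, ALDOC, PGK1 and EGLN3, which also fell at 12 h over 4 h, did not pass for the combination, with adjusted p between 0.272 for ALDOC and 0.958 for EGLN3.

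Against the single agents, 1 member was higher and 4 were lower with the combination than with ibrutinib, where 5.49% of all genes passed, 2.10% higher and 3.39% lower. The 4 lower were VEGFA, HK2, PFKM and SLC16A1, and SLC16A3 was higher. Compared with SPX5551, 2 were higher (NDRG1 and PFKL) and 3 lower (VEGFA, LDHA and LDHB), where 7.24% of all genes passed, 3.27% higher and 3.97% lower. With library size alone the splits were 1 higher and 2 lower against ibrutinib and 4 higher and 3 lower against SPX5551. Neither count held when single libraries were left out: the count against ibrutinib was 0 without the 8 h ibrutinib or the 8 h combination library, and the count against SPX5551 was 0 without the 8 h SPX5551 library. Against ibrutinib it was 1 to 3 without the 4 h or 12 h ibrutinib or combination library, the 4 h or 8 h DMSO library or the 8 h SPX5551 library, and against SPX5551 it was 2 without the 12 h combination library and 8 without the 12 h DMSO or 8 h ibrutinib library. The test for a departure from adding the single-agent effects on the log2 scale called 0 members and 0% of all genes. There, 5 members had an unadjusted p under 0.05 (VEGFA, HK2, PFKL, PFKM and MIF), and DESeq2 and limma-voom called no member. With trends in length and GC content removed, PFKL did not pass over SPX5551 (0.09, adjusted p of 0.445) and VEGFA did not pass over ibrutinib (-0.36, adjusted p of 0.0645), where the comparisons ran with length at correlations of 0.25 and -0.33. These comparisons share libraries, so their values stand side by side and are not independent.

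Pooling libraries by exposure, 6 with ibrutinib against 6 without, 4 members were lower (GPI, ENO1, LDHA and LDHB) and 2 higher (NDRG1 and PFKL), where 13.7% of all genes passed, 6.58% lower and 7.14% higher. LDHB had the smallest p, with a log2 fold change of -0.33 ± 0.08 (SE) (adjusted p of 0.0159), and it was the 1 call kept in all 12 fits that left out 1 library. It was lost when all libraries of a time were left out, with an adjusted p of 0.0583 without 4 h, 0.148 without 8 h and 0.0523 without 12 h. For SPX5551 exposure 3 members were lower (VEGFA, HK2 and PFKP) and 0 higher, where 7.01% of all genes passed, 4.89% lower and 2.12% higher. HK2 was the 1 call kept in all 12 fits (-0.46 ± 0.09 (SE), adjusted p of 0.0129). It passed without the 4 h libraries (adjusted p of 0.0337) but not without those of 8 h (0.105) or 12 h (0.155). The exposed libraries of either agent include those of the combination, and no member passed for ibrutinib or SPX5551 alone over DMSO. These pooled calls thus cannot be read as effects of a single agent. The 8 h ibrutinib library and the 12 h SPX5551 library had trends with length of the opposite sign to the other libraries of their time. With both left out, 1 member passed for ibrutinib exposure and 1 for SPX5551 exposure, both counts below the full set. These were PFKL (adjusted p of 0.0497) and HK2 (adjusted p of 0.0265), while LDHB did not pass there (adjusted p of 0.0556). With trends in length and GC content removed, PFKL did not pass for ibrutinib exposure (0.02, adjusted p of 0.791) and VEGFA did not pass for SPX5551 exposure (-0.15, adjusted p of 0.311), against 0.23 ± 0.07 (SE) and -0.36 ± 0.09 (SE) before, and these comparisons ran with length at correlations of 0.36 and -0.39. The count for ibrutinib exposure was 1 without the 12 h SPX5551, the 12 h combination or the 8 h SPX5551 library and 3 without the 4 h combination library. The count for SPX5551 exposure was 1 without the 12 h DMSO, the 4 h or 8 h ibrutinib or the 4 h or 8 h combination library, 5 without the 8 h DMSO or SPX5551 library and 7 without the 4 h SPX5551 library.

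Genes of neighbouring lists were read in the same fits. Of 26 tested genes known to respond to hypoxia that are not members, 10 fell and 4 rose at 12 h over 4 h, where 17.5% of all genes were lower and 18.4% higher. AK4, a mitochondrial adenylate kinase, stood at 50.0, 43.1, 32.5 and 58.3 CPM at 4 h, 24.9, 30.7, 17.7 and 29.2 CPM at 8 h and 25.7, 30.2, 16.7 and 27.9 CPM at 12 h in the ibrutinib, SPX5551, combination and DMSO libraries, with a log2 fold change of -0.88 ± 0.10 (SE) (adjusted p of 1.89e-05). All 8 h and 12 h libraries lay below all 4 h libraries. FAM162A fell by 0.97 on the log2 scale and PLIN2, a lipid droplet coat protein, by 0.86. CCNG2, an unconventional cyclin, rose by 1.71 ± 0.20 (SE) (adjusted p of 3.47e-05). Of 12 HIF regulators tested, 2 fell (ARNT2 and ELOC) and 3 rose (ARNT, EGLN2 and CITED2), a share near the 35.9% of all genes that passed. ARNT, the partner subunit of HIF, was 0.46 ± 0.11 (SE) higher on the log2 scale (adjusted p of 0.00386). Over the 12 regulators the log2 fold changes ran between -2.58 and 0.46, with 6 positive and 6 negative. Among 11 genes of pyruvate entry to mitochondria, PDK2 rose (0.73 ± 0.12 (SE)) and PDK3 fell (-0.30 ± 0.11 (SE)), where the member PDK1 also fell. Of 9 tested genes for other isoforms of these steps, SLC2A6, PFKFB1 and PFKFB2 rose and ADPGK, BPGM and TIGAR fell. For the combination over DMSO, 9.57% of all genes passed, 5.41% lower and 4.16% higher. Of the 26 genes that respond to hypoxia, 2 were lower, AK4 again (-0.77 ± 0.11 (SE), adjusted p of 0.000741) and TFRC. Of the 11 genes of pyruvate entry PDP2 was lower. Of the 9 genes for other isoforms ADPGK was lower and BPGM and SLC2A6 were higher. None of the 12 HIF regulators passed for the combination, a count that lists this small cannot set apart from the share of all genes.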

How the data were processed

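Poly(A) RNA of REC1 cells was made into directional libraries and sequenced on a NextSeq2000, per the labels' protocols, and BWA and the build hg38 were used per the submitters' processing notes. The counting tool, annotation and strand setting are not stated there. The authors deposited raw counts per Ensembl gene and a table of log2 CPM for 14767 genes, and log2 CPM computed here from their counts (prior count of 2) had a correlation with it of 1.000000 when rounded, in each library. Columns were given to treatments and times by their headers. The ibr columns were taken as ibrutinib on the header alone, because a free-text description ties that same name to the SPX5551 sample of the hour. Symbols came from GENCODE 29, where 93.8% of identifiers had one. Genes were filtered with filterByExpr, scaled by TMM and tested with edgeR 4.0.16 in R 4.3.3 (quasi-likelihood F-test, Benjamini-Hochberg over 14412 genes holding 99.9% of counts). Each treatment had a single library at each time, so the 4 treatments stood in as replicates of a time and the 3 times as replicates of a treatment, and p-values measure the spread of treatment by time. SE is the log2 fold change over the square root of F. The common biological coefficient of variation was 0.101. CPM were scaled by TMM. The replicate numbers mark the times by construction, and time or treatment was in every model, so the block is part of the main design. Intervals of ratios cover counting error only. The steps were tested on simulated counts for 12 h over 4 h and for the combination over DMSO. Those counts held no trend with length and no changed genes of low count, so that test does not cover these. The members, roles and gene lists were chosen with earlier results of these data known. The pentose phosphate list is not reported here. Values in every library are printed for members that passed in a comparison (the 12 with the largest log2 fold change where more passed), for HIF1A and for their paralogues. Other settings were RLE scaling and library size, other filters, DESeq2 1.42.0, limma 3.58.1, leaving out libraries or times, removal of trends in length and GC content, and the free-text descriptions.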

Additional observations from a re-analysis of the deposited data

Results flagged for a closer look

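At each time the 4 treatments of each member were compared, and 9 of 114 such groups held 1 library far from the other 3 (gap over range above Dixon's critical value). Chance flags about 1 in 20 groups of independent values, and here each library is also its own treatment. Among these, 3 were combination libraries. PFKM read 38.7 CPM at 4 h with the combination, against 49.9 to 51.7 CPM in the other 3 libraries, and PGAM1 read 167 CPM there against 188 to 189 CPM. SLC16A1 read 113 CPM at 8 h with the combination against 147 to 150 CPM (149.7 at the top). BNIP3L read 23.7 CPM at 4 h with SPX5551 against 28.3 to 29.02 CPM. HK1 read 90.0 CPM at 12 h with SPX5551 against 102 to 104 CPM, and PKM read 1230 CPM at 8 h with SPX5551 against 1402 to 1425 CPM. In DMSO libraries EGLN3 stood apart on opposite sides at 2 times, with 5.51 to 5.65 CPM in the treated libraries against 4.70 CPM with DMSO at 8 h, and 4.09 to 4.16 CPM in the treated libraries against 4.68 CPM with DMSO at 12 h. MIF read 16.6 to 17.4 CPM in the treated libraries at 12 h against 12.2 CPM with DMSO.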

How the results depend on the processing

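The count of members called at 12 h over 4 h was between 15 and 24 in every setting run, against 19, and 15 of the 19 calls held in each fit that left out 1 library. The treatment comparisons rest on 3 libraries a group, or 6 for exposure, and no call among them passed in every setting. Of the calls made in the 8 comparisons with any, none changed sign in a setting other than the free-text descriptions. The causes of the changes below were not tested.

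Without the replicate block (no time or no treatment term), the count was 15 at 12 h over 4 h, 7 at 8 h over 4 h, 1 at 12 h over 8 h, and 0 for the combination over DMSO, over ibrutinib and over SPX5551 and for either exposure. With DESeq2 it was 14 at 12 h over 8 h, 8 for the combination over ibrutinib, 10 over SPX5551 and 5 for SPX5551 exposure. Without the 4 h libraries it was 1 at 12 h over 8 h, 2 for the combination over DMSO, 0 over ibrutinib, 0 over SPX5551 and 1 for ibrutinib exposure. Without the 8 h libraries it was 3 for the combination over DMSO and 0 over ibrutinib, over SPX5551 and for either exposure. Without the 12 h libraries it was 5 for the combination over DMSO, 2 for the departure from additivity and 0 for either exposure. With the 8 h ibrutinib library and the 12 h SPX5551 library left out it was 23 at 12 h over 8 h, 3 for the combination over ibrutinib, 8 over SPX5551 and 1 for either exposure. With only the libraries of the groups compared it was 1 at 12 h over 8 h, 3 for the combination over ibrutinib and 2 over SPX5551, and with library size alone 3 over ibrutinib. With no filter on low counts it was 8 for the combination over SPX5551, 1 for the departure from additivity, 10 for ibrutinib exposure and 7 for SPX5551 exposure. With trends in length and GC content removed it was 8 for the combination over ibrutinib, 11 over SPX5551 and 5 for SPX5551 exposure.

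Leaving out each library in turn gave 15 to 21 calls at 12 h over 4 h, 7 to 17 at 8 h over 4 h, 1 to 15 at 12 h over 8 h, 4 to 12 for the combination over DMSO, 0 to 7 over ibrutinib, 0 to 8 over SPX5551, 1 to 8 for ibrutinib exposure, 1 to 7 for SPX5551 exposure and 0 in the other 5 comparisons.

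With columns given by the free-text descriptions the count was 11 for ibrutinib over DMSO, 5 for SPX5551 over DMSO, 5 for the combination over DMSO, 0 over ibrutinib, 2 over SPX5551, 4 for the departure from additivity, 1 for ibrutinib exposure and 0 for SPX5551 exposure. Signs then turned, with log2 fold changes for the combination over DMSO of 0.48 in VEGFA, -0.93 in NDRG1, 0.31 in HK2, 0.26 in GPI, -0.39 in PFKL, 0.29 in PFKM, 0.11 in PFKP, 0.35 in ENO1, 0.40 in LDHA, 0.24 in SLC16A1 and -0.37 in SLC16A3. Over SPX5551 they were -0.18 in NDRG1, -0.17 in PFKL, 0.13 in LDHA and 0.40 in LDHB. For ibrutinib exposure they were -0.63 in NDRG1, 0.20 in GPI, -0.23 in PFKL, 0.27 in ENO1, 0.28 in LDHA and 0.33 in LDHB, and for SPX5551 exposure 0.21 in VEGFA, 0.18 in HK2 and 0.013 in PFKP.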
